A study of Mus musculus with 60 samples.

Results

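The aryl hydrocarbon receptor Ahr, its DNA-binding partner Arnt, the receptor repressor Ahrr and the mono-ADP-ribosyl transferase Tiparp were followed in Balb/c 3T3 cells, an embryonic mouse fibroblast line of the BALB/c strain. The probe sets were those that the platform's gene table names by these 4 symbols, 4 genes of the 18193 with a symbol of their own on the array. Each gene was read from the probe set with the highest mean over all arrays, and 7 further probe sets of the same genes are given beside it. Of the 4 genes, 3 passed the filter on dim probe sets and Ahrr did not.

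Cells were treated with 2-Acetylaminoflourene (AAF), 2, 4-diaminotoluene (DAT), benzo(a)pyrene (BaP) or 3-methycholanthrene (MCA), names spelled as in the labels, and compared with cells that received 0.75% DMSO alone. A literature-dose set used AAF at 25 µM, DAT at 50 µM, BaP at 0.5 µM and MCA at 2 µM, each for 24 and 120 h. An IC20 set used AAF at 10 µM for both times, DAT at 700 µM for 24 h and 0.2 µM for 120 h, BaP at 1.5 µM for 24 h and 0.1 µM for 120 h, and MCA at 20 µM for 24 h and 0.1 µM for 120 h. DMSO arrays were run in each set and time, and the 60 arrays fall into 20 groups of 3. The labels do not state how much DMSO the treated cells received, nor that replicates came from separate cultures, so p-values measure the spread between these arrays.

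The receptor is a basic helix-loop-helix PAS protein that waits in the cytosol in a chaperone complex. When it binds a planar aromatic ligand it enters the nucleus, pairs with Arnt and binds DNA elements with the core GCGTG, and it drives genes of xenobiotic metabolism such as Cyp1a1. Ahrr and Tiparp are both targets of this dimer and brakes on it: Ahrr competes for Arnt, and Tiparp ADP-ribosylates the receptor, which is itself degraded after activation. BaP and MCA are polycyclic aromatic hydrocarbons and textbook ligands of the receptor, whereas AAF is an acetylated aromatic amine and DAT an aromatic diamine.

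The windows upstream of both feedback genes were searched for the core. Sequence outside the windows was not searched. They are the 250 bases before the start of Tiparp and of Ahrr from RefSeq (GRCm38.p6), written in the gene's direction, with each GCGTG core in capitals (CACGC where the core is on the other strand). Tiparp lies on chromosome 3 from 65528447 to 65555518 on the plus strand and its window is chr3:65528197-65528446. Ahrr lies on chromosome 13 from 74211118 to 74292331 on the minus strand and its window is chr13:74292332-74292581.
Tiparp: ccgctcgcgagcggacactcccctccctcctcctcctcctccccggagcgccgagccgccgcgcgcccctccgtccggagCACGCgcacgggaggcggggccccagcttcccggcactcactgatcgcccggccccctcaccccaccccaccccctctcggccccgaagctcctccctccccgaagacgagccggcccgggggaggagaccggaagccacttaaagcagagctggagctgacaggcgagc
Ahrr: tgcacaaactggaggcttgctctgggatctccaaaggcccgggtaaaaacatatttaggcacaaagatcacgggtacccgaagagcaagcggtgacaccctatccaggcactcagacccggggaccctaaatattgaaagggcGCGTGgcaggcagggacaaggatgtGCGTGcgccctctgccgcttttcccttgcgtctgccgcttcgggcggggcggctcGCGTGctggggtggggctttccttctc
The Tiparp window held 1 core, on the other strand and 170 bases upstream of the start, and the Ahrr window held 3, at 107, 82 and 27 bases upstream. The Arnt window of the table, which ends within the annotated gene and not at its start, held 1 core. Of 32841 windows of this length in the table, 28.2% held the core on either strand. The longer form TNGCGTG, which contains the core, occurred once in the Ahrr window, in neither the Tiparp nor the Arnt window, and in 4.1% of all windows on either strand. A match describes letters and is not a measured binding site.

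The 2 sets had been scaled differently before deposit, so levels are compared within a set. The mean intensity after trimming was 152 to 187 on arrays of the literature-dose set and 498 on those of the IC20 set, and the median was 41.2 to 47.1 and 56.3 to 98.9. Typical residual spread between replicates was 0.115 on the log2 scale in the literature-dose set and 0.218 in the IC20 set, so differences there had to be larger to pass. In the 12 DMSO arrays all 9 fibroblast markers lay above the array median on every array, as did 0 of 4 epithelial, 0 of 3 endothelial and 0 of 4 macrophage markers. Some of those were above it on part of the arrays: Csf1r on 11 of 12, Epcam on 10, Adgre1 on 6, Cd68 on 4 and Krt8 on 3. Krt18, Cdh1, Ptprc and the endothelial markers Pecam1, Cdh5 and Kdr were above it on 0. The part of other cell types in the results below was not tested. Differences are given on the scale of log2(intensity + 16) after quantile normalization within each set, which understates the fold change of dim probe sets. In such bulk RNA, fewer cells of a type and less RNA per cell cannot be told apart.

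Of the 3 genes that passed the filter, Tiparp had the largest responses. It rose in 11 of 16 treatments (adjusted p below 0.05 over 12650 genes) and fell in 0, against 3.71% higher calls over all genes and treatments, and its 3 treated arrays lay above all 3 DMSO arrays in 14 of 16 treatments, against 9.61% over all genes. It rose in 4 of 4 treatments with BaP, 4 of 4 with MCA, 2 of 4 with DAT and 1 of 4 with AAF. These counts moved with the fit, as given in the closing section. Ahr fell in 3 treatments and Arnt in 1, against 3.69% lower calls over all genes and treatments, and Ahrr passed in 0. All 3 treated Ahr arrays lay below DMSO in 4 treatments and all 3 Arnt arrays in 2, against 7.95% over all genes. The median log2 difference over the 16 treatments was 0.79 for Tiparp, -0.14 for Ahr, -0.12 for Arnt and 0.06 for Ahrr, whereas the median over all genes lay between -0.03 and 0.05 in each treatment.

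**Figure D1:**
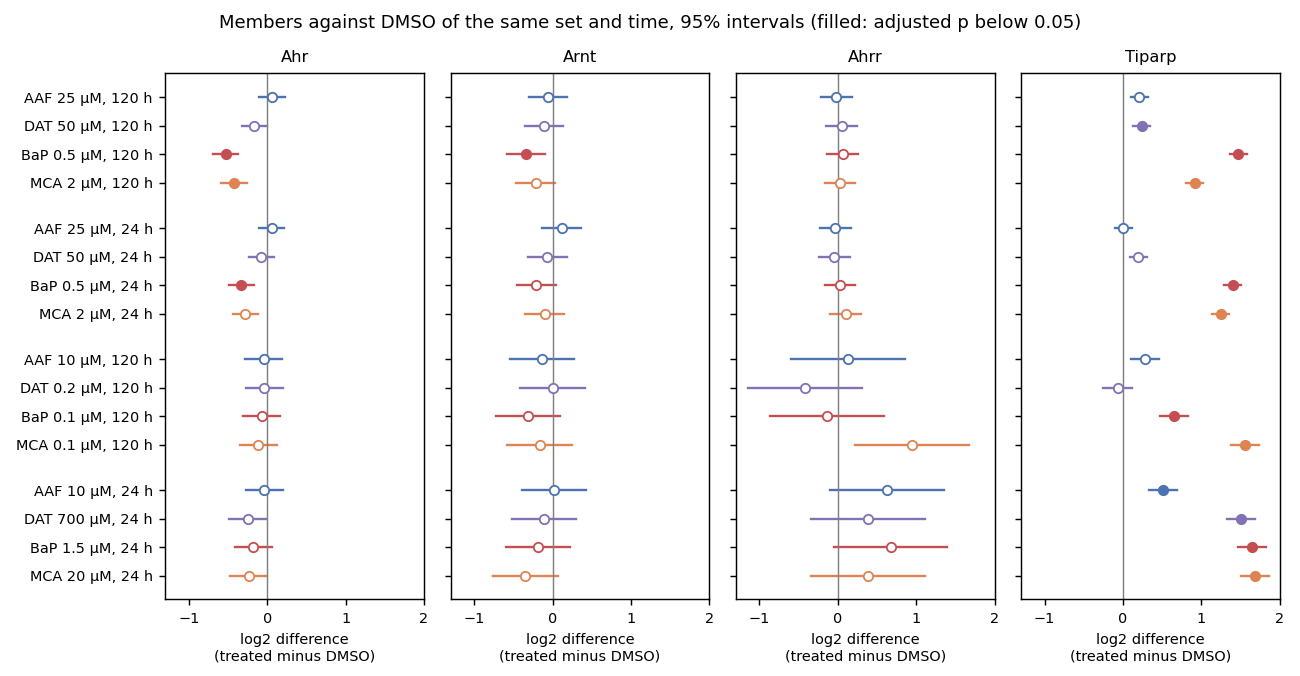
Log2 difference of each gene, treated minus DMSO of the same set and time, with its 95% interval; filled points passed an adjusted p of 0.05, and the upper 8 treatments are the literature-dose set. Tiparp ranges from -0.07 to 1.69, whereas Ahr and Arnt lie mostly to the left of 0 and Ahrr has wide intervals in the IC20 set.

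Ahr, the ligand-binding receptor itself, was read from probe set 1422631_at, which lay at the 79.0 to 91.4 percentile of its array in both sets. At 120 h in the literature-dose set Ahr had intensities of 427.2, 467.8 and 460.0 with BaP, 446.0, 464.4 and 511.9 with MCA, 569.6, 495.5 and 600.3 with DAT and 685.4, 660.7 and 691.4 with AAF, against 661.1, 606.3 and 644.0 with DMSO. All BaP, MCA and DAT arrays lay below all DMSO arrays, and the AAF arrays overlapped the DMSO arrays. Over all genes, 17.1% had all 3 arrays below DMSO with BaP and 24.8% with MCA. Ahr fell with BaP by 0.53 ± 0.08 on the log2 scale (SE, n = 3, adjusted p = 7.6e-06), where 12.9% of all genes were called lower, and with MCA by 0.43 ± 0.08 (SE, n = 3, adjusted p = 8.69e-05), where 20.2% were. With DAT the difference was -0.17 (adjusted p = 0.135), and 11.5% of all genes also had all 3 arrays below DMSO. With AAF it was 0.06 (adjusted p = 0.982). The log2 ratio of 3' over 5' Actb control signal, a sign of RNA quality, was 0.39 to 0.51 with BaP and 0.34 to 0.40 with AAF, both above the 0.28 to 0.33 with DMSO, and 0.27 to 0.33 with MCA, which overlapped DMSO. Its part in the BaP differences of Ahr and of Arnt was not tested.

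At 24 h in the same set Ahr had 277.5, 252.0 and 307.3 with BaP, 297.4, 302.1 and 251.3 with MCA, 354.2, 323.4 and 343.4 with DAT and 370.3, 349.0 and 368.5 with AAF, against 334.5, 295.0 and 429.0 with DMSO. The DMSO arrays spread widely, and the lowest of them lay within the range of both the BaP and the MCA arrays. Ahr fell with BaP by 0.33 ± 0.08 (SE, n = 3, adjusted p = 0.00672), where 4.88% of genes were called lower, and without DMSO replicate 3 the difference was -0.22 (adjusted p = 0.0909). With MCA it was -0.28 (adjusted p = 0.063), and it passed when DMSO replicate 1, DMSO replicate 2 or MCA replicate 2 was left out (adjusted p of 0.034, 0.0479 and 0.0301). Whether the responses differed between times was tested for the 4 chemicals, and the difference of responses, 120 h minus 24 h, was -0.20 for BaP and -0.15 for MCA (adjusted p of 0.341 and 0.371).

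In the order of Ahr levels at 120 h, AAF (679.2 ± 16.3, SD, n = 3) overlapped DMSO (637.1 ± 28), and below a gap followed DAT (555.1 ± 53.9), MCA (474.1 ± 34.0) and BaP (451.7 ± 21.5), each overlapping its neighbour. At 24 h every group overlapped DMSO, and MCA (283.6 ± 28.1) and BaP (278.9 ± 27.7) had the lowest means.

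In the IC20 set Ahr passed in 0 of 8 treatments. The treated arrays spanned 1575 to 1998 at 120 h, against 1750 to 1925 with DMSO, and 939.6 to 1327 at 24 h, against 1111 to 1358 with DMSO. The point estimates were all below 0, between -0.04 and -0.25 (SE 0.12). The 3 arrays with MCA at 20 µM, 1053, 1105 and 1002, lay below the DMSO arrays, 1358, 1280 and 1111, as did 6.74% of all genes. That difference was -0.24 (adjusted p = 0.478, and 0.0336 with the replicate number as a block), and with DAT at 700 µM it was -0.25 (adjusted p = 0.219, and 0.0104 with the block).

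The other Ahr probe set, 1450695_at, is listed with the same source sequence and lay lower on the arrays, at the 45.0 to 69.1 percentile. It passed in 0 of 16 treatments, and its difference was -0.26 ± 0.14 with BaP at 0.5 µM for 120 h (SE, n = 3, adjusted p = 0.292) and -0.01 with MCA at 2 µM for 120 h (adjusted p = 0.99). In the IC20 set it followed the replicate number: the 10 arrays numbered replicate 3 held 207.9 to 331.6, those numbered 1 held 80.97 to 207.2 and those numbered 2 held 63.48 to 140.9. The fall of Ahr with BaP and MCA therefore rests on 1 of its 2 probe sets.

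**Figure D2:**
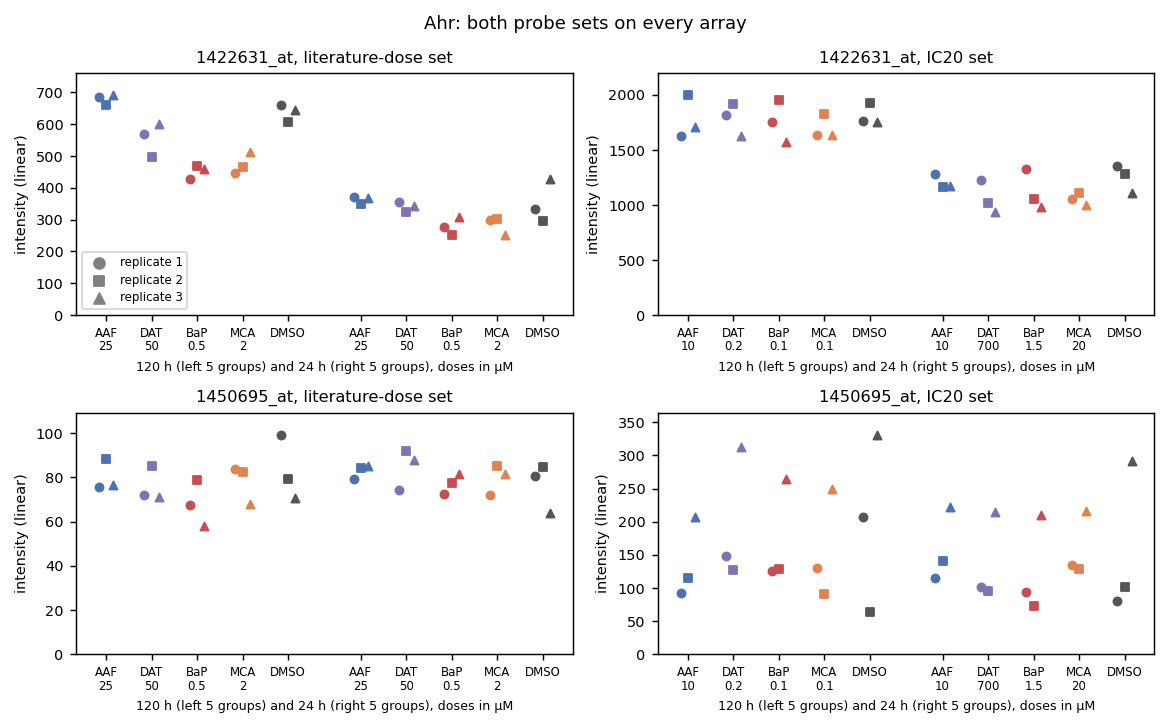
Intensity of both Ahr probe sets on every array, by treatment, time and set, with marker shape for the replicate number. 1422631_at is lower with BaP and MCA than with DMSO at 120 h in the literature-dose set, and 1450695_at in the IC20 set separates the replicate 3 arrays from the others.

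Arnt, the shared dimer partner, was read from 1419996_s_at, at the 76.5 to 90.0 percentile. With BaP at 0.5 µM for 120 h Arnt had 405.9, 450.0 and 513.4, against 546.7, 531.3 and 591.1 with DMSO. All 3 treated arrays lay below all 3 DMSO arrays, as did 17.1% of all genes. Arnt fell there by 0.34 ± 0.12 (SE, n = 3, adjusted p = 0.0355), where 12.9% of genes were called lower. The Arnt call did not hold without BaP replicate 1 (0.182), BaP replicate 2 (0.101), DMSO replicate 1 (0.0922) or DMSO replicate 3 (0.113). Of the other 4 Arnt probe sets, 2 were called lower in this comparison, 1421721_a_at by 0.42 ± 0.10 (SE, n = 3, adjusted p = 0.00402) and 1437042_at by 0.28 ± 0.08 (adjusted p = 0.0248), and the 2 dimmest, 1425064_at and 1449696_at, differed by -0.11 and -0.02 (adjusted p of 0.65 and 0.957). In the IC20 set 1421721_a_at followed the replicate number. There the 10 arrays numbered replicate 3 held 522.8 to 916.4, those numbered 1 held 284.3 to 515 and those numbered 2 held 275.7 to 506.9.

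Elsewhere Arnt passed in 0 of 15 treatments. Its point estimate was below 0 in 13 of 16, and the levels of neighbouring groups overlapped at both times in both sets. With MCA at 2 µM for 120 h Arnt had 444.2, 472.6 and 534.5, against 546.7, 531.3 and 591.1 with DMSO, a difference of -0.21 (adjusted p = 0.169, and 0.00538 with the replicate number as a block). With BaP at 0.5 µM for 24 h it had 299.1, 322.2 and 330.4, against 293.2, 382.7 and 424.7 with DMSO, a difference of -0.21 (adjusted p = 0.333, 0.0201 with the block, and 0.0322 without DMSO replicate 1). With MCA at 20 µM for 24 h the arrays held 554.3, 728.6 and 759.6, all below the DMSO arrays at 821.6, 998.1 and 762.7, and the difference of -0.35 ± 0.20 did not pass (SE, n = 3, adjusted p = 0.612). Only in the last of these 3 treatments were the groups apart, as they were for 6.74% of all genes.

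**Figure D3:**
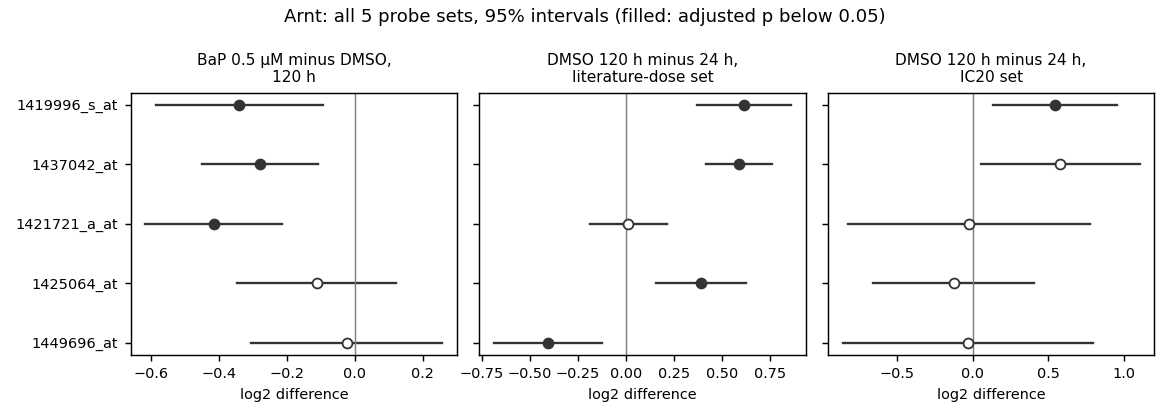
Log2 differences with 95% intervals for the 5 Arnt probe sets, ordered from the highest mean, in BaP at 0.5 µM for 120 h against DMSO and in DMSO at 120 h against 24 h in both sets. The 3 brightest probe sets are all called lower with BaP, whereas between the DMSO times they range from 0.01 to 0.61 in the literature-dose set.

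Ahrr, the repressor that competes with the receptor for Arnt, was near background on most arrays. Its single probe set, 1420796_at, lay above the array median on 0 of 60 arrays and above the lower quartile on 0 of 30 arrays of the literature-dose set, where it held 5.15 to 11.9. In the IC20 set it lay above the lower quartile on 8 of 30 arrays. With MCA at 0.1 µM for 120 h it held 27.82, 36.24 and 32.51, against 11.92, 15.23 and 1.283 with DMSO. All 3 arrays lay above DMSO, and they stood at the 29.3 to 37.1 percentile of their arrays. Of the genes that passed the filter on dim probe sets, which Ahrr did not, 7.48% had all 3 arrays above DMSO in that comparison. The other 5 arrays above the lower quartile were 1 each with AAF at 10 µM for 24 h, AAF at 10 µM for 120 h, DAT at 700 µM, BaP at 1.5 µM and MCA at 20 µM.

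In a fit that kept dim probe sets, Ahrr passed in 0 of 16 treatments, with 1 at an unadjusted p below 0.05 and 4.8% of all genes and treatments called. The MCA difference was 0.95 ± 0.35 (SE, n = 3, 95% interval 0.22 to 1.68, unadjusted p = 0.0123, adjusted p = 0.301). In the order of levels at 120 h in the IC20 set, MCA (32.2 ± 4.22, SD, n = 3) stood above a gap, and AAF, BaP and DAT each overlapped DMSO (9.48 ± 7.29). Values this dim have no further order. In the other set and times all neighbouring groups overlapped.

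**Figure D4:**
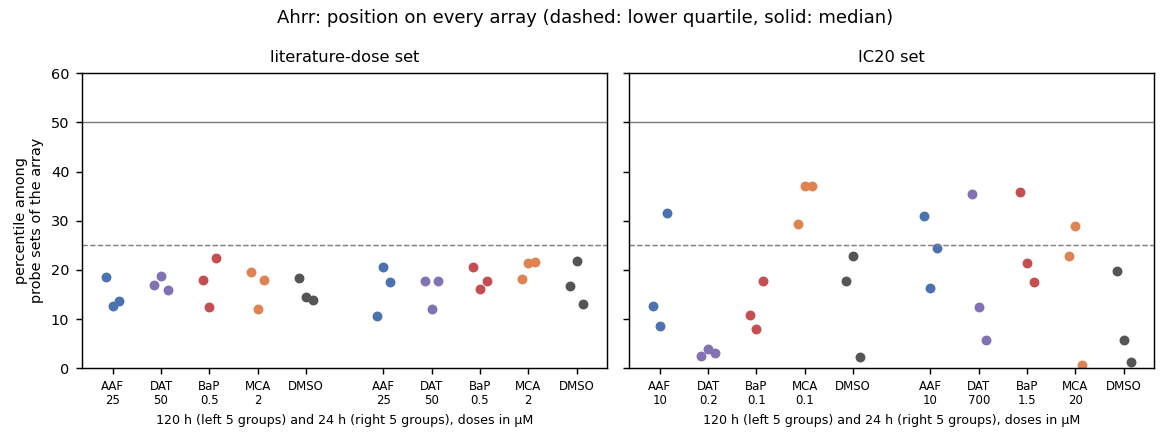
Percentile of the Ahrr probe set among all probe sets of each array, by treatment and time, with the lower quartile dashed and the median solid. No array reaches the median, and the 3 arrays with MCA at 0.1 µM for 120 h stand together between 29.3 and 37.1.

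Tiparp, also called TCDD-inducible poly(ADP-ribose) polymerase, was read from 1426721_s_at, at the 89.9 to 98.7 percentile. At 120 h in the literature-dose set Tiparp had 2231, 2390 and 2378 with BaP, 1575, 1730 and 1635 with MCA, 1039, 926.5 and 1009 with DAT and 944.6, 1015 and 1025 with AAF, against 789.5, 852.6 and 906.8 with DMSO. Every treated array lay above every DMSO array, and the BaP, MCA and remaining arrays formed 3 separate levels. All 3 arrays lay above DMSO for 21.8% of all genes with BaP, 20.5% with MCA and 8.23% with DAT. Tiparp rose 2.77-fold with BaP (log2 1.47 ± 0.05, SE, n = 3, adjusted p = 1.76e-17), where 13.8% of genes were called higher, and 1.89-fold with MCA (log2 0.92 ± 0.05, adjusted p = 2.31e-13), where 18.8% were. With DAT it rose 1.18-fold (log2 0.24, adjusted p = 0.00127) where 11.7% were called higher. With AAF the difference was 0.21 (adjusted p = 0.102, 0.0244 with the replicate number as a block, and 0.0355 without AAF replicate 1), where 0.356% of genes were called in either direction and 10.1% had all 3 arrays above.

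At 24 h in this set Tiparp had 1630, 1598 and 1737 with BaP, 1515, 1583 and 1362 with MCA, 750.6, 686.5 and 698.1 with DAT and 627.0, 578.9 and 613.3 with AAF, against 614.7, 577.1 and 643.3 with DMSO. The AAF and DMSO arrays were interleaved, and the other 3 treatments lay above both without overlap. All 3 arrays lay above DMSO for 9.61% of all genes with BaP and 4.02% with MCA. Tiparp rose 2.64-fold with BaP (log2 1.40 ± 0.05, SE, n = 3, adjusted p = 6.15e-17), with 4.51% of genes called higher, and 2.37-fold with MCA (adjusted p = 1.24e-15), with 1.09%. With DAT the difference was 0.19 (adjusted p = 0.158, and 0.024 with the block), where 0.174% of genes were called in either direction and 6.24% had all 3 arrays above. With AAF it was 0.00 (95% interval -0.11 to 0.11, adjusted p = 0.998), and 0.909% of genes were called in either direction.

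At 120 h in the IC20 set Tiparp had 8591, 8206 and 8663 with MCA at 0.1 µM, 4113, 4741 and 4628 with BaP at 0.1 µM, 3196, 3768 and 3368 with AAF at 10 µM and 2537, 2782 and 2965 with DAT at 0.2 µM, against 2990, 2620 and 2958 with DMSO. The MCA, BaP, AAF and DMSO arrays did not overlap one another, and the DAT arrays overlapped DMSO. All 3 arrays lay above DMSO for 7.48% of all genes with MCA and 8.79% with BaP. Tiparp rose 2.95-fold with MCA (log2 1.56 ± 0.09, SE, n = 3, adjusted p = 3.66e-12), with 1.3% of genes called higher, and 1.57-fold with BaP (log2 0.65 ± 0.09, adjusted p = 8.4e-05), with 0.941%. The BaP call did not hold when only the 2 groups were fitted (adjusted p = 0.0608). With AAF the difference was 0.28 (adjusted p = 0.212, and 0.0308 with the block), where 0.545% of genes were called in either direction and 7.11% had all 3 arrays above. With DAT it was -0.07 (95% interval -0.25 to 0.11, adjusted p = 0.987), and limma called 0% of 12650 genes there. An unadjusted p below 0.05 was found for 640 genes, where a share of 0.05 would have it without any difference. With the replicate number as a block 216 were called, but the correlations of same-numbered arrays there (0.092, 0.134 and 0.429) were not all over 0.1.

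At 24 h in the IC20 set Tiparp had 7232, 7345 and 6756 with MCA at 20 µM, 6336, 7218 and 6652 with BaP at 1.5 µM, 6299, 6274 and 6186 with DAT at 700 µM and 3258, 2935 and 3096 with AAF at 10 µM, against 1972, 2188 and 2296 with DMSO. All treated arrays lay above all DMSO arrays, with MCA and BaP overlapping and DAT just below them. The same position was held by 10.3% of all genes with MCA, 11.7% with BaP, 13.5% with DAT and 3.79% with AAF. Tiparp rose 3.22-fold with MCA (log2 1.69 ± 0.09, SE, n = 3, adjusted p = 8.77e-13), 3.12-fold with BaP (adjusted p = 1.65e-12) and 2.85-fold with DAT (adjusted p = 8.11e-12), where 0.632%, 1.16% and 4.17% of genes were called higher. It rose 1.43-fold with AAF (log2 0.51 ± 0.09, adjusted p = 0.0173), 1 of 3 genes called higher in that comparison (0.0237%). The AAF call was lost without DMSO replicate 1 (adjusted p = 0.349) or 2 (0.0866), without AAF replicate 1 (0.17), 2 (0.0633) or 3 (0.0748), and when the 2 groups were fitted alone (0.502).

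**Figure D5:**
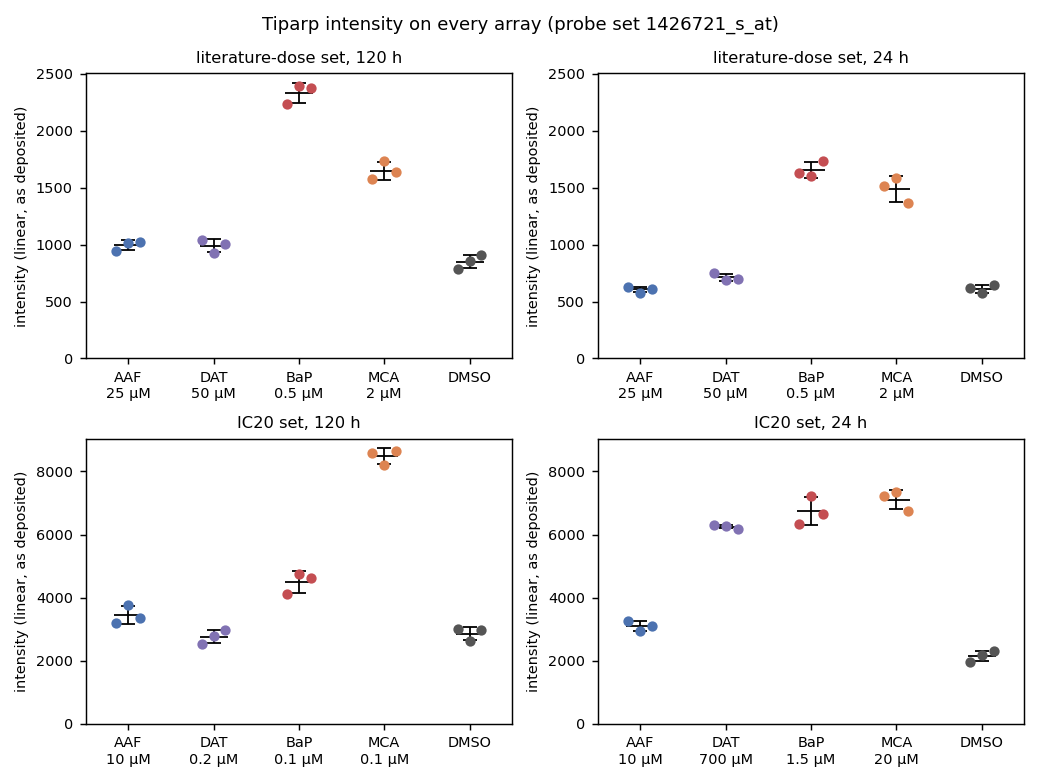
Tiparp intensity on every array of each set and time, with the mean and SD of the 3 arrays of a group as black bars. Treated groups stand left of DMSO, and the 2 sets have separate vertical scales. BaP and MCA lie above DMSO in each panel, and DAT does so most at 700 µM.

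The other 2 Tiparp probe sets gave the same direction in the treatments that were called. They and the probe set used are listed with the same source sequence. 1452160_at was called higher in 9 treatments and 1452161_at in 8, and both missed the threshold with AAF at 10 µM for 24 h (adjusted p of 0.624 and 0.852) and with BaP at 0.1 µM for 120 h (0.246 and 0.0932). 1452161_at also missed it with DAT at 50 µM for 120 h (0.43) and between the DMSO times of the IC20 set (0.29, adjusted p = 0.168).

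The doses of DAT and of AAF differed between the sets, so their Tiparp responses stand side by side without a test: for DAT -0.07 at 0.2 µM (120 h), 0.24 and 0.19 at 50 µM (120 and 24 h) and 1.51 at 700 µM (24 h), and for AAF 0.28 and 0.51 at 10 µM (120 and 24 h) and 0.21 and 0.00 at 25 µM (120 and 24 h). Doses of different sets also differ in scaling and spread.

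The response at 120 h was set against that at 24 h where the concentration was the same, in 5 tests per gene. The Tiparp response to MCA at 2 µM was smaller at 120 h, 0.92, than at 24 h, 1.24, and the difference of -0.33 ± 0.08 passed (SE, n = 3, 95% interval -0.48 to -0.17, adjusted p = 0.00145), where 13.3% of genes were called lower. It lay between -0.38 and -0.28 in 12 fits that each left out 1 array. On 1452161_at the difference was -0.37 and did not pass (adjusted p = 0.34), nor did it pass with arrays scaled to 1 median (-0.25, adjusted p = 0.093). For BaP at 0.5 µM it was 0.07 (95% interval -0.08 to 0.22, adjusted p = 0.714), where 8.47% of genes were called in either direction. For DAT at 50 µM it was 0.05 (adjusted p = 0.798, 8.21% of genes called), for AAF at 25 µM 0.21 (adjusted p = 0.468, 0.0553% called) and for AAF at 10 µM -0.24 (adjusted p = 0.999, 0% called by limma). In the test of AAF at 10 µM, 494 of 12650 genes had an unadjusted p below 0.05, and 70 were called with the block. Without any difference a share of 0.05 would fall below that unadjusted threshold. Ahr, Arnt and Ahrr passed in 0 of these 5 tests each.

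BaP and MCA shared 1 dose and time, 0.1 µM for 120 h, which made 1 pair of compounds to compare. They differ in ring skeleton, and MCA carries a methyl group that BaP does not. Tiparp had 4113, 4741 and 4628 with BaP and 8591, 8206 and 8663 with MCA. The groups did not overlap. The difference, BaP minus MCA, was -0.91 ± 0.09 (SE, n = 3, 95% interval -1.09 to -0.73, adjusted p = 9.51e-07), and 0.0316% of genes were called lower. The other 2 Tiparp probe sets gave -1.14 and -1.20 (adjusted p of 0.000153 and 0.00012). For Ahr the difference was 0.04 (95% interval -0.20 to 0.28, adjusted p = 1). For Arnt it was -0.15 (95% interval -0.56 to 0.26, adjusted p = 1). For Ahrr it was -1.09 ± 0.35 (adjusted p = 0.909), with all 3 BaP arrays below the MCA arrays, as for 2.13% of the genes that passed the filter. Cyp1a1, the classical target of the receptor, had the same order, with a difference of -1.90 ± 0.17 (adjusted p = 4.08e-07).

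With solvent alone, 3 of the 4 genes were higher at 120 h than at 24 h in both sets. In the literature-dose set Tiparp had 789.5, 852.6 and 906.8 in DMSO at 120 h, against 614.7, 577.1 and 643.3 in DMSO at 24 h, and Ahr had 661.1, 606.3 and 644.0 against 334.5, 295.0 and 429.0. Neither gene's arrays overlapped between times, and 29.7% of all genes had all 3 arrays higher at 120 h. Ahr rose 1.80-fold (log2 0.85, adjusted p = 4.6e-10), Arnt by 0.61 on the log2 scale (adjusted p = 7.21e-05) and Tiparp 1.41-fold (adjusted p = 5.91e-09), where 29.3% of genes were called higher. In the IC20 set Ahr had 1765, 1925 and 1750 at 120 h, against 1358, 1280 and 1111 at 24 h, again without overlap. The same held for 29.5% of all genes in that set. There Ahr rose 1.45-fold (log2 0.54, adjusted p = 0.000457), Arnt by 0.54 (adjusted p = 0.0307) and Tiparp 1.41-fold (log2 0.50, adjusted p = 4.99e-05), where 17.8% of genes were called higher. The Arnt call in the IC20 set did not hold without DMSO 120 h replicate 3 (0.153), DMSO 24 h replicate 1 (0.0773) or DMSO 24 h replicate 3 (0.11). Ahrr differed by -0.05 and 0.22 between the times of the literature-dose and IC20 sets (adjusted p of 0.748 and 0.746).

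The IC20 time difference depended on the scaling. With arrays scaled to 1 median the median of all genes moved to -0.35 between these DMSO groups, the calls became 857 higher and 4496 lower in place of 2248 and 2831 (without normalization 3119 and 2470), and the differences became 0.08 for Ahr, 0.14 for Arnt and -0.05 for Tiparp (adjusted p of 0.756, 0.67 and 0.813). The log2 ratio of 3' over 5' Actb control signal was 0.54 ± 0.12 at 120 h and 0.29 ± 0.07 at 24 h there (SD, n = 3), and 0.31 ± 0.02 and 0.29 ± 0.04 in the literature-dose set. The same ratio for Gapdh was -0.46 ± 0.08 at 120 h and -0.32 ± 0.04 at 24 h in the IC20 set, and -0.18 ± 0.02 and -0.28 ± 0.03 in the literature-dose set. The part of these ratios in the result was not tested. Probe sets of 1 gene also disagreed on the time difference in DMSO: Ahr 1450695_at gave 0.01 in the literature-dose set (adjusted p = 0.97), Arnt 1421721_a_at gave 0.01 (adjusted p = 0.95) and Arnt 1449696_at gave -0.41 (adjusted p = 0.022).

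Other genes of the pathway were counted from lists over the same 16 treatments, where 3.71% of all gene and treatment pairs were called higher and 3.69% lower. At 120 h in the literature-dose set, where several of the calls below lie, the shares were larger with DAT, BaP and MCA. There 11.7% of genes were called higher and 12% lower with DAT, 13.8% and 12.9% with BaP and 18.8% and 20.2% with MCA. In the cytosolic complex that holds the unliganded receptor, 2 of 5 listed genes were measured, and 2 of 32 pairs were higher. These were the chaperone Hsp90aa1 (0.37, adjusted p = 0.00156) and its co-chaperone Cdc37 (0.41, adjusted p = 0.0117), both with MCA at 2 µM for 120 h, where 18.8% of genes were called higher.

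Among 10 tested bHLH-PAS relatives, 2 of 160 pairs were higher and 8 were lower. Npas3, a neuronal PAS factor, fell in 4 treatments with BaP or MCA, by 1.15 with BaP at 0.5 µM for 120 h (adjusted p = 0.00044), by 1.31 with MCA at 0.1 µM for 120 h (adjusted p = 0.00694), by 1.04 with BaP at 1.5 µM for 24 h (adjusted p = 0.0489) and by 1.22 with MCA at 20 µM for 24 h (adjusted p = 0.0226). Arnt2, a close relative of Arnt, fell with BaP at 0.5 µM and MCA at 2 µM for 120 h, by 0.61 and 0.53 (adjusted p of 0.000176 and 0.000537). The circadian regulator Per2 rose in the same 2 groups, by 0.41 and 0.69 (adjusted p of 0.0367 and 0.000392).

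Of 11 tested coactivators and corepressors, 1 of 176 pairs was higher and 5 were lower. The p160 coactivator Ncoa2 fell in 4 treatments, by 0.60 with DAT at 700 µM for 24 h (adjusted p = 0.00199) and by 0.24 to 0.28 with DAT, BaP and MCA for 120 h in the literature-dose set (adjusted p of 0.00888 to 0.0133). Of the 4 genes listed for receptor degradation, 2 of 64 pairs were higher and 2 lower. The 2 higher were Tbl3 and Stub1, both with BaP at 0.5 µM for 120 h. Cul4b, the scaffold of a ubiquitin ligase that the receptor joins, fell with BaP at 0.5 µM by 0.25 at 120 h and 0.33 at 24 h (adjusted p of 0.00226 and 0.000435). In these comparisons 12.9% and 4.88% of all genes were called lower. With MCA at 2 µM for 120 h Cul4b differed by -0.10 (adjusted p = 0.2). These are RNA levels, and receptor protein was not measured. A link between Cul4b and the Ahr differences was not tested.

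Of the 7 listed target genes 4 were tested, Cyp1a1, Cyp1b1, Nqo1 and Aldh3a1, and 46 of 64 pairs were higher (71.9%) and 0 lower. Cyp1a1 and Cyp1b1, monooxygenases that oxidise aromatic hydrocarbons, each rose in 15 of 16 treatments, all but DAT at 0.2 µM. Nqo1, a quinone reductase, rose in 10 and Aldh3a1, an aldehyde dehydrogenase, in 6. Cyp1a1 was called with AAF at 25 µM for 24 h (0.71, adjusted p = 0.00302), where Tiparp differed by 0.00. Its largest response was 7.35 with MCA at 0.1 µM for 120 h, where that of Tiparp was 1.56, whereas the largest Tiparp response, 1.69, was with MCA at 20 µM for 24 h, where Cyp1a1 differed by 5.04.

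Of 7 tested transferases and related genes of the Tiparp family, 6 of 112 pairs were higher and 15 were lower (13.4%). Parp14, an interferon-responsive mono-ADP-ribosyl transferase, rose in 3 and fell in 4 treatments, from -0.74 with BaP at 0.5 µM for 24 h (adjusted p = 4.19e-07) to 0.65 with DAT at 50 µM for 120 h (adjusted p = 9.66e-07). Parp9, a relative with macrodomains, fell by 0.51 and rose by 0.62 in the same groups (adjusted p of 1.08e-05 and 1.73e-07). Parp8 fell in 3 treatments, by 0.36, 0.47 and 0.45 with DAT, BaP and MCA for 120 h in the literature-dose set.

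Patterns were compared over the 20 group means, each taken relative to the mean of the 5 groups of its set and time. These correlations describe points that share DMSO arrays, chemicals and scaling, and have no test. Tiparp correlated at -0.82 with Ahr, -0.80 with Arnt and 0.57 with Ahrr, and Ahr with Arnt at 0.77. Of all tested genes Cldnd1 was most like Tiparp (r = 0.99), followed by Gsdmd (0.96), Gpc1 (0.95), Adh7 (0.94) and Cpox (0.94). Cldnd1, a claudin-domain membrane protein, differed by 0.88 with BaP at 0.5 µM for 24 h, 0.91 with MCA at 0.1 µM for 120 h and -0.06 with DAT at 0.2 µM. Most like Ahr were Fmod (0.95), Nfib (0.93), Jag1 (0.93), Sparc (0.93) and Dact1 (0.92), and most like Arnt were Brwd3 (0.91), Tmem263 (0.89), Ncam1 (0.88), Hmgcs1 (0.86) and Vgll4 (0.85). For Ahrr, whose values were near background, the most alike were Mast1 (0.86), 9430021M05Rik (0.81), Wdr31 (0.81), Nop9 (0.81) and 1700018B08Rik (0.80).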

How the data were processed

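RNA from 60 samples was hybridised to single-colour arrays of 1 design. The deposited values are linear intensities, 1 for each of 45101 probe sets on each array; the submitters' processing notes name GCOS, whose version is not recorded, and background correction, summarization and scaling target are not given in the sources used here. Members and gene lists were chosen with earlier results of these data known.

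Control probe sets (64), 932 with several symbols and 9211 unlisted were left out. A gene was tested if its brightest probe set exceeded the array median on at least 3 arrays (12650 of 18193 genes). Intensities became log2(intensity + 16), quantile normalized within each set. Each set was fitted on its own with limma 3.58.1 (R 4.3.3) as 10 group means with 20 residual degrees of freedom and a mean-variance trend. P-values are two-sided and were adjusted by the Benjamini-Hochberg method across all genes, separately for each of 24 comparisons, with a threshold of 0.05. The number of arrays limits the precision. The fit was tested on simulated data. Every comparison names all 4 genes. From each list, at most 4 genes that passed in the most treatments are named, and for each gene the 5 most correlated.

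Replicate numbers came from the sample titles. Same-numbered arrays deviated together (every pair's correlation over 0.1) in 13 of 17 comparisons of treatments and in 1 of 2 between DMSO times. There the blocked value stands beside a result whose call it changed. Alternatives covered the pseudocount, scaling, filter, trend, arrays fitted together, replicate block, probe set and single arrays left out. The averaged Arnt probe sets and the Ahrr settings without the filter were added after the data were seen.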

Additional observations from a re-analysis of the deposited data

Results flagged for a closer look

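The Tiparp response to MCA at 2 µM differed between the times. The difference of log2 responses, 120 h minus 24 h, was -0.33 ± 0.08 (SE, n = 3 arrays a group, limma, adjusted p = 0.00145), with responses of 0.92 at 120 h and 1.24 at 24 h over the DMSO arrays of the same time. It was the only one of 5 such tests of Tiparp to pass. It did not pass with arrays scaled to 1 median (-0.25, adjusted p = 0.093) or on probe set 1452161_at (-0.37, adjusted p = 0.34). Mean Tiparp intensity with MCA was 1647 at 120 h and 1487 at 24 h, against 849.6 and 611.7 with DMSO.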

How the results depend on the processing

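The 11 treatments with higher Tiparp and the 3 with lower Ahr kept their direction in each alternative scaling, filter, pseudocount, fit and leave-out. The replicate block added Tiparp calls with DAT at 50 µM for 24 h (adjusted p = 0.024) and AAF at 25 µM for 120 h (0.0244). It also added AAF at 10 µM for 120 h (0.0308), as did all 60 arrays in 1 fit (0.0219). When only the groups compared were fitted, Tiparp was not called with AAF at 10 µM for 24 h (0.502) or BaP at 0.1 µM for 120 h (0.0608). Arnt was lower in 1 treatment, in 0 with all 60 arrays in 1 fit, without normalization or with arrays scaled to 1 median, in 2 when only the groups compared were fitted, in 3 with the replicate number as a block, and in 0 to 2 with 1 array left out. With the replicate block Ahr was lower in 6 treatments in place of 3, MCA at 2 µM for 24 h among them (adjusted p = 0.0334), and calls over all genes and the 16 treatments were 27654 in place of 14979; the numbers pair the arrays in most of these comparisons only. With arrays scaled to 1 median those calls were 9658, Ahr, Arnt and Tiparp were each higher in DMSO at 120 h in 1 set of 2, and 0 of 5 Tiparp responses differed between times. Arnt was higher in DMSO at 120 h in 1 to 2 sets with 1 array left out. Reversed values, all between DMSO times, were -0.05 for Tiparp in the IC20 set with arrays scaled to 1 median, -0.18 for Ahr there on 1450695_at, -0.022, -0.12 and -0.031 for Arnt there on 1421721_a_at, 1425064_at and 1449696_at, and -0.41 for Arnt in the literature-dose set on 1449696_at. The cause of these changes was not tested. Ahr with BaP at 0.5 µM for 24 h was not called with all 60 arrays in 1 fit (adjusted p = 0.0544), with only the groups compared (0.088), without normalization (0.082) or with arrays scaled to 1 median (0.0728), and Tiparp with AAF at 10 µM for 24 h was not called with arrays scaled to 1 median (0.999) or without the mean-variance trend (0.0702). The mean of 3 Arnt probe sets, added after the data were seen, was lower with MCA at 2 µM for 120 h (-0.17, adjusted p = 0.0389) and not called between DMSO times of the IC20 set (0.37, adjusted p = 0.206). That mean includes 1421721_a_at, which followed the replicate number in the IC20 set and gave the reversed value of -0.022 there. Scaling to 1 median moved the share of all-gene calls that were higher by over 10 percentage points in 7 of 15 treatments with calls. Intensities near background, as for Ahrr, limit what could be detected.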
